A study of Drosophila melanogaster with 6 samples.

Results

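A set of 9 genes for maternal factors that silence, deadenylate and clear maternal mRNAs, *smg*, *brat*, *pum*, *cup*, *me31B*, *tral*, *twin*, *Not1* and *bel*, were followed in stage 5 embryos of *Drosophila melanogaster*. They were picked by gene symbol: a row of the expression table belongs to the group if its gene name, or one of its names where a row holds several, is one of these 9 symbols. All 9 were found, each in a single row, among the 16596 loci of the table.

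The early fly embryo runs on mRNAs and proteins that the mother loaded into the egg. During the maternal-to-zygotic transition these maternal mRNAs are removed while the embryo begins its own transcription. RNA-binding repressors such as Smaug, Pumilio and Brain tumor recognise their target mRNAs and bring in the CCR4-NOT complex, which shortens the poly(A) tail, while Cup, ME31B and Trailer hitch hold mRNAs in translationally silent particles. A maternal pathway acts from egg activation on, and a later pathway needs zygotic products. The repressors and decay factors are themselves encoded by maternal mRNAs.

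Messenger RNA had been sequenced from 6 samples of hand-sorted stage 5 embryos, when the blastoderm cellularizes. 3 samples were of embryos laid by females homozygous for zldZnF2, a point mutation that replaces a cysteine of the second zinc finger of the pioneer-like activator Zelda (ZLD) with serine at the endogenous X-linked locus. 3 samples were of w1118 embryos, the wild-type control strain. The mutation is carried by the mothers in every cell, so the embryos received mutant *zld* mRNA, which is translated after fertilization. The genotype of the embryos themselves and their ages within stage 5 are not given in the sources used here. The question behind the comparison was how loss of this zinc finger in maternal ZLD changes early gene expression.

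The table gives 1 FPKM (fragments counted, scaled to transcript length and to the number of mapped reads) per genotype and locus, which stands for the 3 replicates together. It therefore holds no spread between replicates and no depth per sample, so no test of a difference was possible and every difference below is a value without an error. Log2 ratios are those of zldZnF2 over w1118 after 1 FPKM was added to each value, and fold limits apply to that scale, on which low values lie closer together. A locus was kept if its mean FPKM over the 2 genotypes was at least 1, which 5950 loci met, all 9 factors included. Over these loci the median log2 ratio was -0.01, and the central part from percentile 5 to percentile 95 ran from -1.20 to 1.24. As all mRNA of an embryo was sequenced together, fewer cells with an mRNA and less of the mRNA per cell cannot be told apart. Polyadenylated RNA was sequenced, so less of an mRNA and a shorter poly(A) tail on it may not be told apart either. All 2535 loci on the X chromosome, 110 on chromosome 4 and 71 on the Y chromosome have no value above 0 in either genotype, and the row of *zld* (by its older symbol *vfl*) is one of them, so the mutated gene could not be used to check the labels. None of the 9 factors lies on these chromosomes.

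The mRNA of *smg* and *pum* was lower by more than 2-fold in zldZnF2 embryos, that of *Not1* and *me31B* was lower by less than 2-fold, and that of *cup* and *tral* by less again. *bel*, *brat* and *twin* had nearly equal values in the 2 genotypes. 2 of the 9 factors were lower past 2-fold and none was higher, against 7.56% of all kept loci lower and 9.73% higher past that limit. With a limit of 1.5-fold, 3 of the 9 were lower and none was higher, against 17.1% and 20.1% of the loci. The log2 ratio was below 0 for 7 of the 9, among them *bel* at -0.02, against 3015 of the 5950 kept loci. The 9 ratios had a median of -0.34 and a range from -1.57 to 0.11. Large ratios were rarer among abundant loci. Among the 1205 loci with a mean FPKM of at least 100, 1.83% were lower and 0.415% were higher past 2-fold, and of the 5 factors in this range *smg* was lower past 2-fold.

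**Figure D1:**
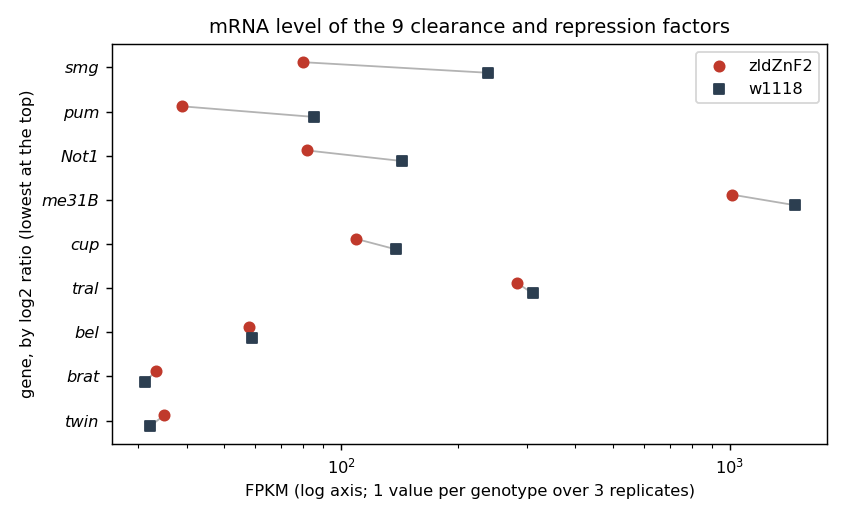
FPKM of the 9 factors in zldZnF2 embryos (red circles) and w1118 embryos (dark squares) on a log axis, 1 value per genotype over 3 replicates, so without error bars. The points lie farthest apart for *smg*, at 79.7 in zldZnF2 and 239 in w1118, and nearly coincide for *bel*, *brat* and *twin*.

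The 4 repressors that are bound to mRNA or to the cap-binding protein spanned nearly the whole range of the ratios. *smg* (FBgn0016070; chromosome 3L, 8990317 to 8997989, minus strand, 5 annotated transcripts) encodes Smaug, which binds stem-loops in *nos*, *Hsp83* and many other maternal mRNAs and recruits the CCR4-NOT deadenylase. Its FPKM was 79.7 in zldZnF2 embryos, against 239 in w1118 embryos, a log2 ratio of -1.57, so that 33.4% of the w1118 level was measured in the mutant. This was the lowest ratio of the 9 factors. 2.74% of the 5950 kept loci had a lower ratio, as did 6 of the 1205 loci with a mean FPKM of at least 100. *smg* was the fifth most abundant of the 9 mRNAs in zldZnF2 embryos and the third in w1118 embryos. No other annotated gene overlaps it.

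*pum* (FBgn0003165; 3R, 9066343 to 9237682, minus strand, 8 transcripts) encodes Pumilio, the founding PUF protein, which with Nanos represses *hb* and *CycB* mRNA. Its FPKM was 39.0 in zldZnF2 embryos, against 85.0 in w1118 embryos, a log2 ratio of -1.11 or 45.8% of the w1118 level. 6.17% of the kept loci had a lower ratio. The gene spans 171340 bases, and the genes annotated within its introns, *CG11997* and *lncRNA:CR45196*, have rows of their own and share none of its 11798 exon bases.

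*cup* (FBgn0000392; 2L, 6663664 to 6674780, plus strand, 2 transcripts) encodes a protein that binds the cap-binding protein eIF4E and blocks translation of *osk* and *nos*. Its row had an FPKM of 109 in zldZnF2 embryos, against 138 in w1118 embryos, a log2 ratio of -0.34. The row is shared with *CG34310*, which the annotation places on all 4306 exon bases of *cup*, so the value is that of both genes. *cort*, which encodes a meiotic activator of the anaphase-promoting complex, overlaps the 3′ end of *cup* on the opposite strand by 99 exon bases and was at 0.732 in zldZnF2 embryos, against 1.95 in w1118 embryos. *Spn27A* lies in an intron of *cup*, shares none of its exon bases and was at 66.2 in zldZnF2 embryos, against 57.8 in w1118 embryos.

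*brat* (FBgn0010300; 2L, 19133816 to 19179758, plus strand, 5 transcripts) encodes Brain tumor, a TRIM-NHL protein that binds *hb* mRNA with Pumilio and Nanos and also many mRNAs without them. Its FPKM was 33.4 in zldZnF2 embryos, against 31.2 in w1118 embryos, a log2 ratio of 0.10. It was the least abundant of the 9 mRNAs in both genotypes. The annotated genes that overlap *brat* on the opposite strand (*Polr1D*, *CG17568* and *lncRNA:CR44977*) share 6, 10 and 135 of its 12788 exon bases. Their own rows were between 0.256 and 3.36 FPKM in zldZnF2 embryos, against 0.542 to 1.57 FPKM in w1118 embryos.

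*pum* and *brat*, whose proteins act together on *hb*, thus lay apart. The FPKM of *pum* was 1.17 times that of *brat* in zldZnF2 embryos and 2.72 times in w1118 embryos.

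The particle proteins included the most abundant mRNAs of the group. *me31B* (FBgn0004419; 2L, 10239341 to 10242172, plus strand, 2 transcripts) encodes a DEAD-box helicase that coats and silences maternal mRNAs. Its FPKM was 1012 in zldZnF2 embryos, against 1472 in w1118 embryos, a log2 ratio of -0.54 or 68.8% of the w1118 level. It was the most abundant of the 9 in both genotypes, above 98.0% of the kept loci in zldZnF2 embryos and 98.4% in w1118 embryos. 18.8% of the kept loci had a lower ratio. Among the 115 loci with a mean FPKM of at least 1000, a limit chosen after the values were seen, 2 had a lower ratio than *me31B*.

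*tral* (FBgn0041775; 3L, 12515059 to 12520954, plus strand, 9 transcripts) encodes Trailer hitch, an LSm-domain partner of ME31B. Its FPKM was 283 in zldZnF2 embryos, against 312 in w1118 embryos, a log2 ratio of -0.14. It was the second most abundant of the 9 mRNAs in both genotypes. *bel* (FBgn0263231; 3R, 8654975 to 8660761, minus strand, 2 transcripts) encodes Belle, a DEAD-box helicase of the DDX3 family that acts in translation. Its FPKM was 58.0 in zldZnF2 embryos, against 59.0 in w1118 embryos, a log2 ratio of -0.02, the nearest to 0 among the 9. No annotated gene overlaps *me31B*, *tral* or *bel*.

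The 2 factors of the CCR4-NOT deadenylase, its scaffold and a catalytic subunit, differed in their ratios. *Not1* (FBgn0085436; 2R, 9566146 to 9579007, minus strand, 6 transcripts) encodes the large protein on which the CCR4-NOT complex is built. Its FPKM was 81.8 in zldZnF2 embryos, against 144 in w1118 embryos, a log2 ratio of -0.80 or 57.0% of the w1118 level. 10.9% of the kept loci had a lower ratio. The only gene that shares exon bases with *Not1* in the annotation is the antisense *lncRNA:CR46257*, with 103 of 10916.

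*twin* (FBgn0011725; 3R, 24196893 to 24221965, minus strand, 6 transcripts) encodes CCR4, a deadenylase of that complex. Its FPKM was 35.01 in zldZnF2 embryos, against 32.3 in w1118 embryos, a log2 ratio of 0.11, the highest of the 9. *cav*, which encodes a telomere-capping protein, overlaps *twin* on the opposite strand by 454 of its 4723 exon bases and was at 90.5 in zldZnF2 embryos, against 112 in w1118 embryos. The library kit does not mark the strand, so reads of these shared bases cannot be told apart.

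Summed over the 9 mRNAs, the FPKM was 1731 in zldZnF2 embryos, against 2511 in w1118 embryos, or 68.9% of the w1118 sum. *me31B* alone made up 58.9% of that difference and *smg* 20.4%. Over all kept loci the summed FPKM of zldZnF2 was 98.1% of that of w1118. The median of the 9 was 79.7 FPKM in zldZnF2 embryos and 138 FPKM in w1118 embryos, while over all kept loci it was 22.3 FPKM in zldZnF2 embryos and 22.9 FPKM in w1118 embryos. In zldZnF2 embryos the order from the highest was *me31B*, *tral*, *cup*, *Not1*, *smg*, *bel*, *pum*, *twin* and *brat*. In w1118 embryos it was *me31B*, *tral*, *smg*, *Not1*, *cup*, *pum*, *bel*, *twin* and *brat*. Without replicate values it could not be said which neighbours in these orders differ beyond their spread, and the values of *Not1* and *smg* in zldZnF2 embryos (81.8 and 79.7) and of *twin* and *brat* in both genotypes lie close together.

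**Figure D2:**
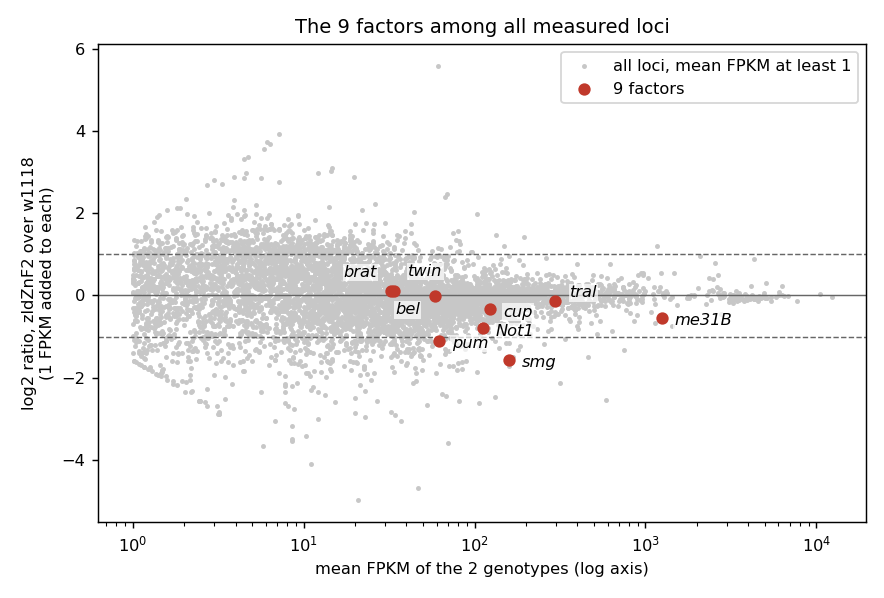
Log2 ratio of zldZnF2 over w1118 (1 FPKM added to each) against the mean FPKM of the 2 genotypes on a log axis, for the 5950 kept loci (grey) and the 9 factors (red). Dashed lines mark the 2-fold limit. *smg* and *pum* lie below the lower line, *Not1* and *me31B* between it and 0 at levels where the grey points are narrowly spread, and the others near 0.

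The study sorted maternal mRNAs by gene lists from an earlier survey of their stability: class II (degraded only by the maternal pathway), class III (degraded by the maternal pathway and also transcribed) and class IV (degraded only by the zygotic pathway). 5 of the 9 factors, *smg*, *pum*, *Not1*, *me31B* and *brat*, are listed in class IV, none is in class II or III, and *cup*, *tral*, *bel* and *twin* are in none of these classes. For comparison, the 5950 kept loci include 341 that hold several genes. Among the single-gene loci, 965 were of class IV, 303 of class II and 296 of class III. The median log2 ratio was -0.80 over the 5 class IV factors, from -1.57 to 0.10, and -0.08 over the 4 others, from -0.34 to 0.11. The 4 lowest ratios of the group were thus those of class IV mRNAs, and *brat* was the class IV mRNA among the 3 near 0. The class as a whole lay on the same side of 0: over 965 class IV genes with a kept single-gene locus the median was -0.39, and 14.8% were lower and 1.55% higher past 2-fold, against 7.56% and 9.73% of all kept loci. The medians of class II (303 genes) and class III (296 genes) were 0.55 and 0.95. Within class IV, 3.32% of the genes had a lower ratio than *smg*, 11.0% than *pum*, 22.6% than *Not1*, 40.5% than *me31B* and 80.2% than *brat*. *brat* and *bel* are also on the part of the study's list of ZLD-bound genes that was used here (1999 genes). The other 7 were not found on that part, but the full list is longer, so they may be on the rest of it. The share of all kept loci on that part is not given here.

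The other genes of the same machinery were taken from lists of pathway genes, leaving out the 9 factors. Past 2-fold, 7.56% of all kept loci were lower and 9.73% were higher, which is the background for the counts of each list. Of 12 measured RNA-binding repressors and partners, none was past 2-fold in either direction once 1 FPKM was added, and the median log2 ratio was -0.24. The lowest was *exu*, which localizes *bcd* mRNA, with 1.97 FPKM in zldZnF2 embryos, against 3.97 in w1118 embryos (log2 ratio -0.74), and these values are 2.02-fold apart without the added FPKM. The highest was *glo*, which encodes the *nos* repressor Glorund, with 582 in zldZnF2 embryos, against 409 in w1118 embryos (log2 ratio 0.51). None of the 12 reached the ratio of *smg* or *pum*.

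Of 9 other measured deadenylase genes, none was lower and 1 was higher past 2-fold, and the median was 0.00. *Not11*, a subunit of CCR4-NOT, was at 17.6 FPKM in zldZnF2 embryos, against 5.93 in w1118 embryos (log2 ratio 1.43). *Pop2*, which encodes the CAF1 deadenylase that pairs with CCR4, had the lowest ratio, at 82.1 in zldZnF2 embryos, against 126 in w1118 embryos (log2 ratio -0.61). Together with *Not1* and *twin*, the subunits of this complex thus ran from -0.80 to 1.43.

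Of 9 other measured decapping and P-body genes, which encode the enzymes and cofactors that act once the tail is short, none was past 2-fold, and the median was -0.19. *Ge-1*, a scaffold of the decapping complex, was lowest with 16.1 FPKM in zldZnF2 embryos, against 27.2 in w1118 embryos (log2 ratio -0.72). *Dcp2*, the decapping enzyme, was highest with 37.2 in zldZnF2 embryos, against 28.7 in w1118 embryos (log2 ratio 0.36).

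Genes of egg activation and of poly(A) control had a median of -0.77 over 9 measured genes. 3 of them were lower past 2-fold and none was higher, against 7.56% and 9.73% of all kept loci. Of the 965 class IV genes, 14.8% were lower and 1.55% higher past 2-fold, with a median of -0.39. The egg activation list was drawn up with earlier results of these data known. With 0.1 FPKM added in place of 1, 4 of its genes were lower past 2-fold, the fourth being *cort*, whose values are given above. *gnu* and *plu* encode the activating subunits of the PAN GU kinase, which allows *smg* mRNA to be translated at egg activation. *gnu* was at 9.90 FPKM in zldZnF2 embryos, against 35.4 in w1118 embryos (log2 ratio -1.74). *plu* was at 23.0 in zldZnF2 embryos, against 58.1 in w1118 embryos (log2 ratio -1.30). *sra*, a calcineurin regulator that egg activation needs, was at 33.4 in zldZnF2 embryos, against 79.9 in w1118 embryos (log2 ratio -1.23). These 3 ratios lie beside those of *smg* and *pum*. The highest was that of *fzy*, an activator of the anaphase-promoting complex, at 481 in zldZnF2 embryos, against 425 in w1118 embryos (log2 ratio 0.18). The kinase subunit gene *png* lies on the X chromosome and is listed at 0.

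**Figure D3:**
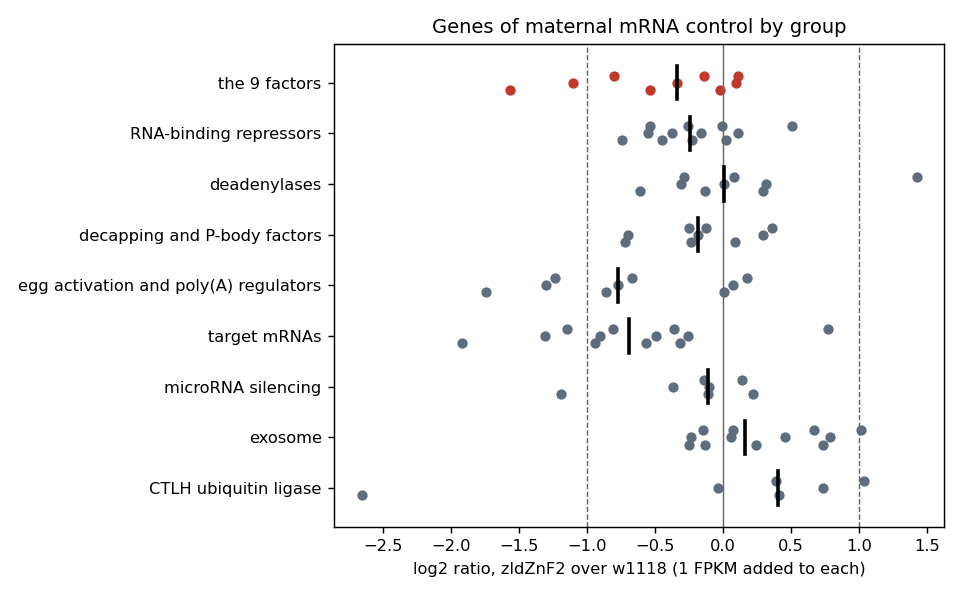
Log2 ratio of zldZnF2 over w1118 (1 FPKM added to each) for the measured genes of each group, 1 point per gene, with black bars at the median and dashed lines at the 2-fold limit. The 9 factors are in red and left out of the other groups. The medians run from -0.77 for the egg activation and poly(A) genes to 0.40 for the CTLH ligase genes.

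12 mRNAs under control of these factors, or cleared at the same time, were all measured. 11 had a log2 ratio below 0, against 3015 of the 5950 kept loci. 3 were lower past 2-fold and none was higher past 2-fold, against 7.56% and 9.73% of all kept loci. The median of the 12 was -0.69. The 965 class IV genes also leaned below 0, with a median of -0.39, and 14.8% of them were lower and 1.55% higher past 2-fold. The list of the 12 was drawn up with earlier results of these data known. *bcd*, the anterior determinant, was at 9.22 FPKM in zldZnF2 embryos, against 37.8 in w1118 embryos (log2 ratio -1.92). *grk*, a TGF-alpha-like ligand of oogenesis, was at 2.62 in zldZnF2 embryos, against 7.96 in w1118 embryos (log2 ratio -1.31). *stg*, a Cdc25 phosphatase that drives entry into mitosis, was at 10.6 in zldZnF2 embryos, against 24.7 in w1118 embryos (log2 ratio -1.15). In the values of all 12, maternal mRNA and any made by the embryo are counted together.

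The other targets were less than 2-fold apart. *CycB*, a mitotic cyclin repressed by Pumilio and Nanos, was at 358 in zldZnF2 embryos, against 687 in w1118 embryos (log2 ratio -0.94). *twe*, the other Cdc25 gene, was at 99.6 in zldZnF2 embryos, against 188 in w1118 embryos (log2 ratio -0.91). The localized germ plasm mRNAs *gcl*, *pgc*, *osk* and *nos* had log2 ratios of -0.81, -0.57, -0.49 and -0.26. Those of *hb*, which the embryo also transcribes, and *Mad*, a BMP effector repressed by Brat, were -0.36 and -0.32.

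*Hsp83* stood apart from the other 11. It encodes the Hsp90 chaperone, and its maternal mRNA is a well-known target of Smaug in the bulk cytoplasm. It was at 177 FPKM in zldZnF2 embryos, against 103 in w1118 embryos, a log2 ratio of 0.77. Maternal and zygotic *Hsp83* mRNA are counted together.

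**Figure D4:**
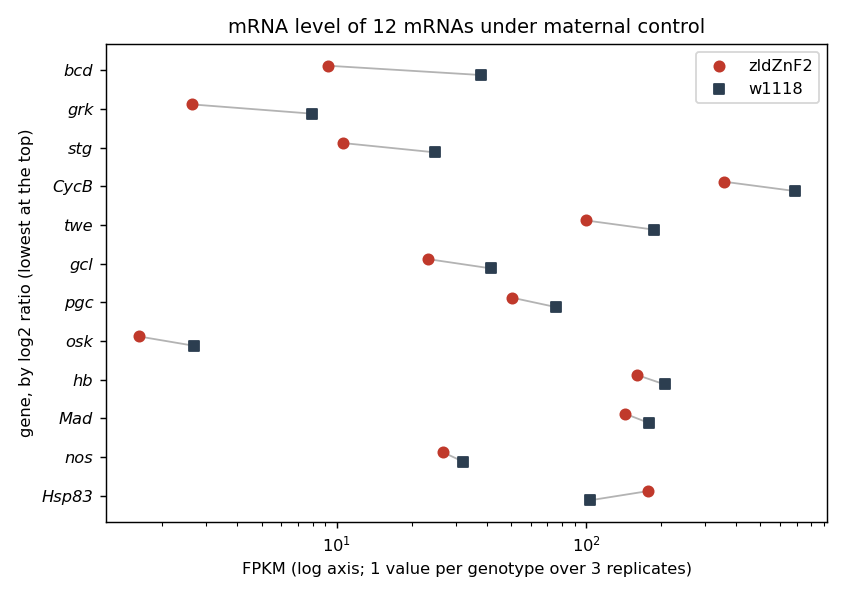
FPKM of 12 mRNAs that the factors control, or that are cleared at the same time, in zldZnF2 embryos (red circles) and w1118 embryos (dark squares) on a log axis, 1 value per genotype over 3 replicates. *Hsp83* is the only one of the 12 higher in zldZnF2, at 177 in zldZnF2 and 103 in w1118, and *bcd* has the lowest ratio, at 9.22 in zldZnF2 and 37.8 in w1118.

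The other lists had medians nearer to 0 or above it. The microRNA silencing list also holds genes of small interfering RNAs. Of its 7 measured genes 1 was lower past 2-fold and none was higher, with a median of -0.11. The lower gene was *Dcr-2*, whose product makes small interfering RNAs and not microRNAs, at 6.03 FPKM in zldZnF2 embryos, against 15.1 in w1118 embryos (log2 ratio -1.19). The highest, *AGO2*, its Argonaute partner, was at 169 in zldZnF2 embryos, against 145 in w1118 embryos (log2 ratio 0.22). Of 12 measured exosome and 5′ exonuclease genes 1 was higher past 2-fold and none was lower, with a median of 0.16. It was *Rrp42*, a core subunit, at 24.4 in zldZnF2 embryos, against 11.5 in w1118 embryos (log2 ratio 1.02). The lowest, *Csl4*, a cap subunit, was at 73.0 in zldZnF2 embryos, against 86.9 in w1118 embryos (log2 ratio -0.25).

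The CTLH ubiquitin ligase removes the ME31B, Trailer hitch and Cup proteins at the maternal-to-zygotic transition, and Slimb takes part in the removal of Smaug. Of 6 measured genes of this list 1 was lower and 1 higher past 2-fold, and the median was 0.40. *muskelin*, a CTLH subunit, was at 13.8 FPKM in zldZnF2 embryos, against 92.3 in w1118 embryos (log2 ratio -2.65). *RanBPM*, another subunit, was at 43.3 in zldZnF2 embryos, against 20.6 in w1118 embryos (log2 ratio 1.04). *muskelin* was already known to be far lower when the list was drawn up.

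Markers were read to set these values in context. Of 11 measured stage 5 zygotic genes none was past 2-fold, and 9 were above 0 on the log2 scale, against 2935 of the 5950 kept loci. *slam*, a cellularization gene, was at 1927 in zldZnF2 embryos, against 1919 in w1118 embryos, and *bnk*, another, at 872 in zldZnF2 embryos, against 1398 in w1118 embryos. Of 10 eggshell genes, markers of follicle cells of the ovary with a summed FPKM of 1.69 in zldZnF2 and 1.30 in w1118, *Cp18* passed the filter, with 1.14 in zldZnF2 embryos, against 1.20 in w1118 embryos, 8 were below it and 1 lies on the X chromosome, while *Cp19*, *Vm26Ab* and *Vm32E* are listed at 0 in both genotypes. 3 of 6 measured later segment genes were higher past 2-fold in zldZnF2 embryos and none was lower, against 9.73% and 7.56% of all kept loci. The summed FPKM over the list was 40.9 in zldZnF2 and 12.5 in w1118. *gsb*, a segment polarity gene, was at 13.2 in zldZnF2 embryos, against 1.10 in w1118 embryos. 4 of 6 measured muscle genes were lower past 2-fold, against 7.56% of all kept loci. Among them was *Act57B*, with 0.336 in zldZnF2 embryos, against 21.7 in w1118 embryos. *Prm* went the other way, with 1.91 in zldZnF2 embryos, against 0.896 in w1118 embryos (log2 ratio 0.62). The summed FPKM of the muscle list was 507 in zldZnF2 and 545 in w1118. *Tm1*, which held most of that sum and is not particular to muscle, was at 504 in zldZnF2 embryos and 509 in w1118 embryos. The part of a difference in embryo age, or of other cells in the w1118 samples, in the values of the 9 factors was not tested.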

How the data were processed

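Polyadenylated RNA of 3 samples per genotype had been sequenced. According to the methods and the submitters' processing notes, the authors mapped the reads to dm6 with RNA-STAR, assembled transcripts with Cufflinks and compared the genotypes with Cuffdiff. The notes also name TopHat. Each locus has a single FPKM per genotype in the deposited table, which the authors computed over the replicates together. The settings for library normalization and counting are not given in the sources used here. The deposited table also holds the authors' own comparison: a log2 fold change and a test statistic (both taken as scores), a p-value and a q-value for each locus. These were not used.

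From the FPKM, log2((zldZnF2 + 1)/(w1118 + 1)) was computed for each locus, with a minimum mean FPKM of 1 and a fold limit of 2. The study used the same fold limit together with a p-value limit, and kept only genes misexpressed in all replicates. Its counts of changed genes are therefore not comparable with the counts given here. The planned description was used in place of a test because the values are pooled. The depth per sample is unknown, so no interval, floor or detection limit is given. The calculation was tested on simulated data. Symbols were matched to FlyBase identifiers, positions and exons in the annotation of Ensembl release 115 (dm6 coordinates, counted from 1). For the decay classes, older symbols were matched through RefSeq synonyms where the positions overlap. Those of the list genes were given with the lists, without a check of position. Those of genes that overlap a factor were entered by hand. 152 of 153 list entries had a row, and *mir-309* had none. Decay classes were read from the study's gene lists.

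All 9 factors are named, as are in each pathway list the genes past 2-fold and the highest and lowest ratio, all target mRNAs, and at most 4 markers a list, the most abundant by mean FPKM, not all of which are given. *Cp19*, *Vm26Ab*, *Vm32E*, *vas*, *png*, *Prm* and the genes that overlap a factor were named after their values were seen. The members and lists were chosen with earlier results of these data known. Alternatives were a pseudocount of 0.1, centring on the median, other minimums (none, 5, 30 and 100), fold limits of 1.5 and 3, and single-gene loci. Python 3.11.15, NumPy 2.4.6, pandas 2.3.3 and Matplotlib 3.10.9 were used.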

Additional observations from a re-analysis of the deposited data

How the results depend on the processing

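No paired analysis was possible because the table holds 1 value per genotype. Leaving out a replicate could not be done for the same reason. A value is called the same where it moved by at most 0.1 on the log2 scale, and a count or share where it stayed within 1.5 times. Of 204 recomputed values 176 were the same, 28 were not and 0 reversed, and the log2 ratios of all 9 factors were among the same under every alternative computed for them. With a pseudocount of 0.1 the median of the egg activation and poly(A) list was -0.91 and 4 of its genes were lower. With a minimum mean FPKM of 5 the median of the target mRNAs was -0.81, below the -0.76 of the egg activation list, so which of these lists had the lower median turned with the minimum. Without a minimum, 4.89% of loci were lower and 5.88% higher. With a fold limit of 1.5, 17.1% of loci were lower and 20.1% higher, 1 deadenylase gene, 2 decapping genes, 1 RNA-binding repressor, 6 egg activation genes and 6 targets were lower, and 4 exosome genes, 2 CTLH genes and 1 target were higher. With a limit of 3, 0 of the 9 factors were lower, 2.67% of loci were lower and 1.68% higher, 1 egg activation gene, 1 target and 0 microRNA silencing genes were lower, and 0 deadenylase, 0 exosome and 0 CTLH genes were higher. Minimums of 30 and 100 were chosen after the data were seen. They gave 4.49% and 1.83% of loci lower and 1.55% and 0.415% higher, and at 100, where 5 factors remained, 1 of them (*smg*) was lower. Centring on the median shifted each log2 ratio by 0.007. The spread between replicates and the depth are unknown, so how small a difference could have been measured is not known either.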

Other observations

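Ratios of levels within a genotype differed between the embryos for factors that act together. The FPKM of *Not1* was 2.34 times that of *twin* in zldZnF2 embryos and 4.44 times in w1118 embryos. *smg* was at 0.975 times the FPKM of *Not1*, whose complex Smaug recruits, in zldZnF2 embryos, and at 1.66 times in w1118 embryos. Against *cup*, with which Smaug represses *nos*, *smg* was at 0.731 times in zldZnF2 embryos and at 1.73 times in w1118 embryos. The pairs of the particle proteins were closer: *me31B* was at 3.57 times the FPKM of its partner *tral* in zldZnF2 embryos and 4.72 times in w1118 embryos, and at 9.29 times that of *cup* in zldZnF2 embryos and 10.6 times in w1118 embryos. FPKM is per transcript length, but each ratio rests on 1 value per genotype and has no error. The value used for *cup* is that of the row shared with *CG34310*.

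Genes with reads assigned inside the same assembled intervals as the factors had ratios of their own. *l(2)37Ce* and *l(2)37Cg*, in the interval of *brat*, had log2 ratios of 0.46 and 0.51, and *Spps*, in that of *twin*, 0.64. In the interval of *Not1*, *CG1814* had -0.83, next to the -0.80 of *Not1*, and *CG1868* had 0.28. These genes were chosen after their values were seen.

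Of the 6 genes listed as markers of pole cells and germ plasm, *vas*, which encodes the Vasa helicase, was the 1 with a log2 ratio above 0. It was at 12.4 FPKM in zldZnF2 embryos, against 5.74 in w1118 embryos (log2 ratio 0.99). *aub*, a Piwi-family Argonaute that also takes part in the decay of *nos* mRNA, was at 50.2 in zldZnF2 embryos, against 62.7 in w1118 embryos (log2 ratio -0.31).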
